A study of Caenorhabditis elegans with 41 samples.

Results

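Embryos of the Caenorhabditis elegans strain SP117 were compared with embryos of the strain TY1916, gene by gene over all chromosomes, with mRNA-seq. The comparison takes 5 of the 23 mRNA-seq libraries of the study, 2 from SP117 and 3 from TY1916, chosen by the strain and stage in the sample labels. SP117 carries mnDp10, a piece of the right part of chromosome X attached to chromosome I, and the allele unc-3(e151) on X. TY1916 carries yDp11, a shorter piece of X attached to chromosome IV, and the alleles lon-2(e678) and unc-9(e101) on X, together with extra copies of a block of chromosome IV and of the left end of chromosome V. Both are homozygous hermaphrodite strains, and all embryos were mixed in stage, taken by bleaching gravid adults. VC100 embryos (3 libraries; unc-112(r367) V, with the X deletion gkDf2) were set beside the others as values of another strain. No animal age, batch or wild-type library enters here, so a difference between SP117 and TY1916 does not by itself say which strain departs from wild type.

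In C. elegans hermaphrodites a condensin-based dosage compensation complex binds both X chromosomes and lowers their transcription, so that XX animals match XO males. Pieces of X attached to an autosome differ in whether the complex binds them: mnDp10 is known to recruit the complex and yDp11 is known not to. Extra copies of a segment can also alter genes elsewhere in the genome, and strains kept apart for long can differ by background mutations. The embryo adds a further axis, because a mixed-stage collection holds maternally loaded RNA, RNA of the first zygotic divisions and RNA of differentiating tissues in proportions that follow the ages of the embryos.

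Libraries of a strain resembled each other about as much as, or more than, libraries of different strains. Over the genes tested, Spearman's rho was 0.968 between the SP117 libraries, 0.955 to 0.972 among the TY1916 libraries and 0.875 to 0.964 between the strains. The depth of each library relative to the deepest, read from the spacing of low FPKM values, was 100% and 69.5% in SP117, 75.5%, 51.9% and 58.4% in TY1916, and 29.8% to 48.5% in VC100. Read counts were not used here. An early-stage score per library, the median of maternal and early zygotic genes minus the median of muscle, pharynx, intestine, epidermis and synaptic genes on the log2 scale, was 0.218 and 1.56 in SP117, against -1.48, -0.327 and -0.061 in TY1916. SP117 replicate 2 thus stood highest and TY1916 replicate 1 lowest, and the nearest libraries of the 2 strains were SP117 replicate 1 and TY1916 replicate 3. The score was computed from measured genes after the data were seen, and its part in the results below was not tested beyond the 2 settings given with them. Of 20390 genes listed in each file, 20346 were kept and 13244 passed the filter on low values, a mean of at least 1 FPKM (fragments per kilobase of transcript, scaled to the mapped fragments of the library) over the 5 libraries.

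The marker genes of the strains were looked at first. lon-2 on X (chrX:4738837-4749055, WS220/ce10), which encodes a glypican that restrains body length, had 13.3 and 16.9 FPKM in SP117 embryos, against 4.55, 4.75 and 2.9 FPKM in TY1916 embryos, whose strain carries lon-2(e678). VC100 embryos had 17.7, 14.4 and 20.8 FPKM. The log2 ratio of SP117 over TY1916 was 1.89 (standard error 0.339, adjusted p = 0.0238, limma with Benjamini-Hochberg adjustment), and the strains did not overlap. unc-9, an innexin gene next to the right edge of yDp11, had 23.5 and 9.71 FPKM in SP117 embryos, against 76, 49.5 and 54.1 FPKM in TY1916 embryos (log2 ratio -1.95, adjusted p = 0.0312, limma). unc-3, a transcription factor gene of motor neurons that lies in the part of mnDp10 that TY1916 lacks, had 23.5 and 13.3 FPKM in SP117 embryos, against 25.5, 20.7 and 16.1 FPKM in TY1916 embryos, and did not pass the test (log2 ratio -0.2, adjusted p = 0.683, limma). Its SP117 copies include the e151 allele, so this gene is no readout of the duplication alone.

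Over the whole genome, 895 of 13244 genes (6.76%) differed at an adjusted p under 0.05 in limma. Of these, 837 (6.32%) were lower and 58 (0.438%) were higher in SP117 than in TY1916. Of the 58 higher genes, 44 lay on the part of X that is extra in SP117 alone. Outside the duplicated regions, 756 of 12142 genes (6.23%) differed, and the split was 750 lower (6.18%) against 6 higher (0.0494%). At an unadjusted p under 0.05, 3188 genes outside the regions differed. The median log2 ratio of all genes outside was -0.12 with quartiles of -0.79 and 0.29, and 6761 of them (55.7%) were negative. Centring each library on its median moved that median to 0.05, with 809 genes lower and 38 higher, and quantile normalization moved it to 0.1, with 354 lower and 13 higher, so the lower genes stayed the large majority under each scaling.

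**Figure D1:**
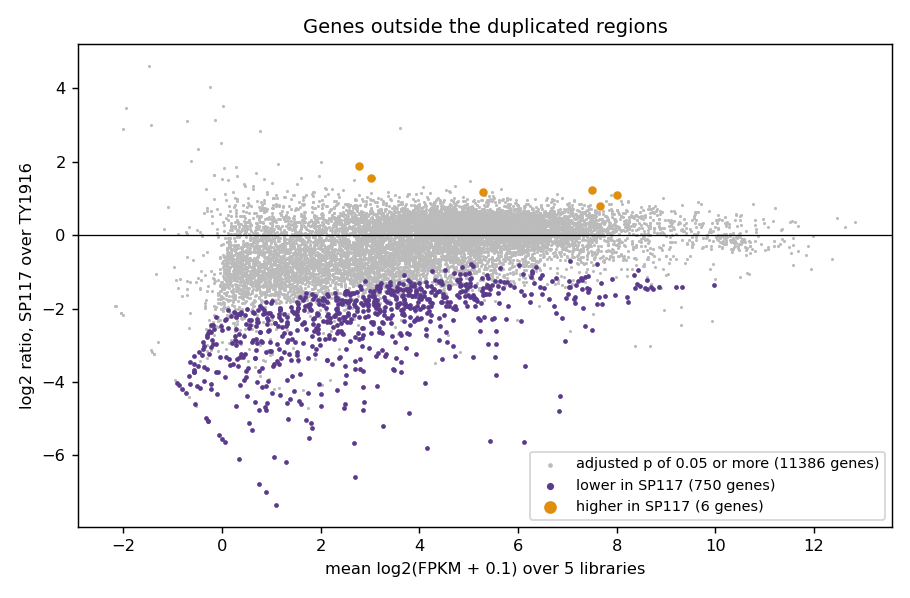
Log2 ratio of SP117 over TY1916 embryos (y axis) against the mean log2(FPKM + 0.1) over the 5 libraries (x axis) for the 12142 genes tested outside the duplicated regions, 1 point per gene. The 750 purple genes were lower and the 6 orange genes higher in SP117 at an adjusted p under 0.05 in limma, and the lower genes are found at low, middle and high levels, with the largest ratios at low levels.

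The 750 genes lower in SP117 had a median log2 ratio of -2.12, with quartiles of -2.89 and -1.65, and 411 of them were below -2. They were short and of modest level. Their median span on the genome was 1461 bp, against 2365 bp for all genes tested outside, and their median of the mean level was 9.91 FPKM, against 18 FPKM. In 15 of them both SP117 libraries were listed at 0. All 3 VC100 libraries also lay below all 3 TY1916 libraries in 650 of the 750 (86.7%), against 30.8% of all genes tested outside. In 92 of the 750 (12.3%) all VC100 libraries lay above both SP117 libraries, against 17.3% of all genes tested outside. The VC100 levels therefore mostly stood on the SP117 side of these differences, but TY1916 enters both comparisons, and the shares describe the genes without a test.

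Fewer genes were called in 2 settings built on the early-stage score. The score did not overlap between the strains (0.218 and 1.56 in SP117, against -1.48, -0.327 and -0.061 in TY1916). The covariate therefore takes up part of the strain difference, and the other setting drops libraries. Both leave less information on the strains, so the lower counts do not say what part stage has. With the early-stage score as a covariate, a setting added after the data were seen, 16 genes outside the regions were lower and 0 were higher by limma (1792 of all genes tested had an unadjusted p under 0.05), and without SP117 replicate 2 and TY1916 replicate 1 together 35 were lower and 1, nduc-2, was higher. All 16 genes called with the covariate and 29 of the 35 called without the 2 libraries were among the 750. All 750 genes kept a negative ratio with the covariate (median -1.7). In all 750 both SP117 libraries lay below all TY1916 libraries, so leaving libraries out could not reverse the direction. Without the 2 libraries 747 of the 750 still passed the filter on low values, with a median of -1.74, and their negative sign is no separate result. The range over single libraries left out is wide too, with 51 calls outside the regions without TY1916 replicate 3 and 2095 without SP117 replicate 1. Of the 82 called genes named here, 24 stayed called whichever of the 5 libraries was dropped. The ratio of 17 of the 82 moved by over 1.5 times, the most for tbb-6 and irg-2.

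Only 6 genes outside the regions were higher in SP117, and lon-2 was the one with the largest ratio. ZK666.1 had 12.3 and 18.9 FPKM in SP117, against 3.82, 6.5 and 5.5 FPKM in TY1916 (log2 ratio 1.55, adjusted p = 0.0454, limma). Y39G10AL.1 had 277 and 328 FPKM in SP117, against 105, 165 and 126 FPKM in TY1916 (log2 ratio 1.22, adjusted p = 0.0277, limma). The other genes have known functions. aptf-4, an AP-2 family transcription factor gene, had 56.6 and 71.6 FPKM in SP117, against 21.1, 32.7 and 32.4 FPKM in TY1916 (log2 ratio 1.17). prmt-1, a protein arginine methyltransferase gene, had 358 and 452 FPKM in SP117, against 148, 219 and 212 FPKM in TY1916 (log2 ratio 1.08). nol-56, a core protein of the box C/D particles that guide rRNA methylation, had 275 and 282 FPKM in SP117, against 147, 173 and 166 FPKM in TY1916 (log2 ratio 0.79). The adjusted p values of aptf-4, prmt-1 and nol-56 were 0.0430, 0.0408 and 0.0412 in limma, and none of the 6 was called with the stage covariate. The 4 next genes by unadjusted p that did not overlap between the strains, C50F4.6, fbxb-17, T07A9.14 and btb-11, had log2 ratios of 0.72 to 1.48 and adjusted p values of 0.0509 to 0.0526 (limma) and so were not called.

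Genes of the early embryo formed the upper side of the ratios without a call. In bulk embryos, a different number of cells or embryos of a kind and a different amount of RNA per cell cannot be told apart. Of 27 cell cycle and replication genes, 0 were called, while 17 had an unadjusted p under 0.05 in limma, the median log2 ratio was 0.69 (against -0.12 over all genes outside), and in 20 genes both SP117 libraries exceeded all TY1916 libraries, as they did in 18.5% of all genes outside. rnr-1, the large subunit of ribonucleotide reductase, had 234 and 360 FPKM in SP117, against 133, 179 and 175 FPKM in TY1916 (log2 ratio 0.85, adjusted p = 0.0833, limma). Of 24 maternal cell fate regulators, 0 were called and 10 had an unadjusted p under 0.05, with a median of 0.70. oma-1, a zinc-finger gene of oocyte maturation, had 145 and 216 FPKM in SP117, against 50.3, 93.6 and 113 FPKM in TY1916 (log2 ratio 1.13, adjusted p = 0.105, limma). Of 14 early zygotic endomesoderm genes, 0 were called and 6 had an unadjusted p under 0.05, with a median of 0.85. vet-6, a very early zygotic transcript, had 127 and 169 FPKM in SP117, against 49.3, 85.5 and 91.1 FPKM in TY1916 (log2 ratio 1.01, adjusted p = 0.0895, limma). With the stage covariate, which was built in part from these lists, the medians were 0.10 for the cell cycle, -0.0037 for the maternal and 0.15 for the early zygotic genes.

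Other germline lists showed smaller medians, again with no gene called higher by limma. The median was 0.49 over 22 P granule and small RNA genes, 0.47 over 22 meiotic pairing and synapsis genes and 0.44 over 27 chromatin genes of the germline and X. In these lists 5, 2 and 6 genes had an unadjusted p under 0.05 in limma. Of all genes outside, 3188 of 12142 did, so none of the 3 shares was above that of all genes. The library scores of the strains overlapped for the P granule and the meiotic list. The exception among the chromatin genes was hil-1, a linker histone-like gene, which was lower in SP117, with 2.02 and 0.832 FPKM, against 10.6, 8.18 and 10.6 FPKM in TY1916 (log2 ratio -2.81, adjusted p = 0.0165, limma). Among the 9 subunits and recruiters of the dosage compensation complex outside the regions, none was called and the median was 0.32, or -0.05 with the stage covariate. The subunit gene dpy-28 had 59.6 and 74.8 FPKM in SP117, against 40.5, 48.8 and 46.9 FPKM in TY1916 (log2 ratio 0.56, adjusted p = 0.132, limma). Protein and binding of the complex were not measured here. Among 11 sex determination genes none was called either, and the lowest adjusted p was that of her-1, the secreted signal of male fate, with 3.13 and 6.34 FPKM in SP117, against 10.9, 12.7 and 13.4 FPKM in TY1916 (log2 ratio -1.44, adjusted p = 0.0583, limma).

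**Figure D2:**
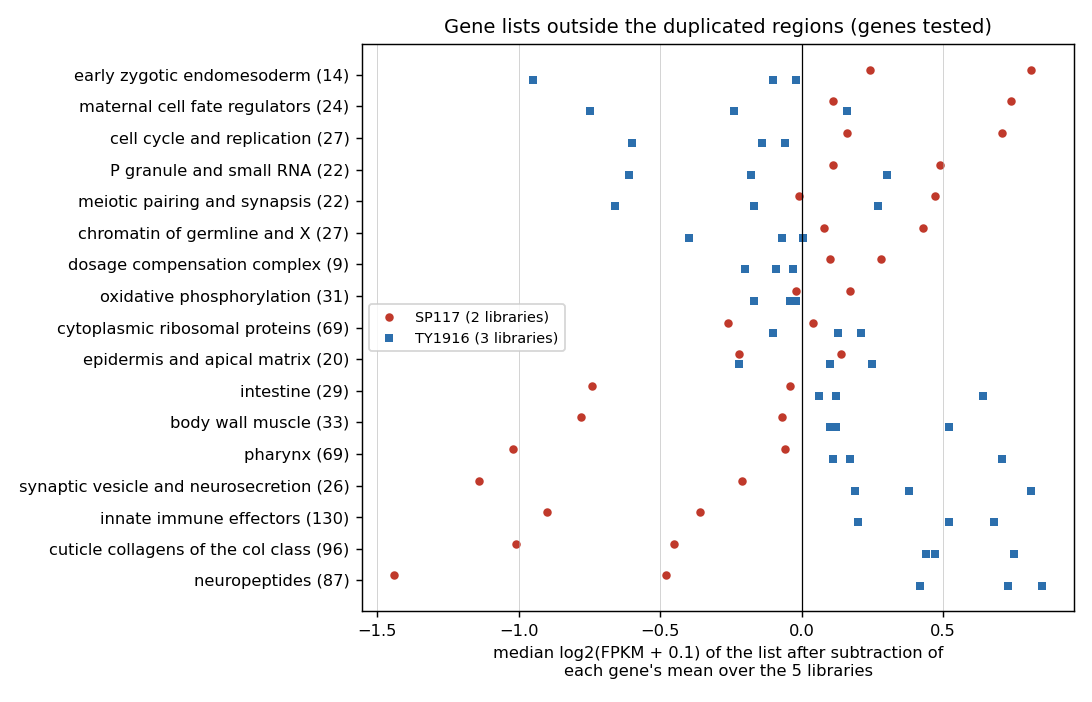
Score of each library (x axis, median log2(FPKM + 0.1) of a list after each gene's mean over the 5 libraries was subtracted) for 17 gene lists (y axis), with SP117 as red circles above TY1916 as blue squares and the number of genes tested outside the regions in brackets. SP117 replicate 2 and TY1916 replicate 1 lie at opposite ends of most lists, and the neuropeptide genes have scores of -0.48 and -1.44 in SP117, against 0.85, 0.42 and 0.73 in TY1916.

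The nervous system gave the list with the most calls. Of 87 neuropeptide genes tested outside the regions, 39 were lower in SP117 and 0 higher, 44.8% against 6.18% of all genes outside, with a median log2 ratio of -1.61. Within it, 14 of 26 genes of the flp class (FMRFamide-like peptides) and 25 of 61 of the nlp class (other neuropeptide-like proteins) were lower. flp-22 had 4.52 and 4.18 FPKM in SP117, against 33.7, 22.4 and 29.2 FPKM in TY1916 (log2 ratio -2.66, adjusted p = 0.00594, limma). nlp-1 had 1.55 and 1.65 FPKM in SP117, against 10.5, 7.57 and 8.22 FPKM in TY1916 (log2 ratio -2.36, adjusted p = 0.0134, limma). Enzymes that mature these peptides were lower as well. egl-21, the carboxypeptidase, had 23.9 and 12 FPKM in SP117, against 69.4, 47 and 56.8 FPKM in TY1916 (log2 ratio -1.74), and egl-3, the proprotein convertase, had 26.7 and 14.2 FPKM in SP117, against 60.4, 43.1 and 52 FPKM in TY1916 (log2 ratio -1.39). sbt-1, the chaperone of that convertase, and unc-25, the glutamate decarboxylase of GABA neurons, had log2 ratios of -1.42 and -1.49, and the adjusted p values of these 4 genes were 0.0266 to 0.0421 (limma). In all, 7 of 26 synaptic and neurosecretion genes were lower (median -1.04), while 0 of 34 cilia genes were called (median -0.54, but 0.08 after quantile normalization). With the stage covariate the medians were -0.89 for neuropeptides and -0.32 for the synaptic list, and 0 genes of either were called by limma.

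Muscle, pharynx and gut genes followed with fewer calls. In body wall muscle 6 of 33 genes were lower (18.2%, against 6.18% of all genes outside, median -0.63). pat-10, troponin C of body wall muscle, had 443 and 285 FPKM in SP117, against 1215, 780 and 888 FPKM in TY1916 (log2 ratio -1.41, adjusted p = 0.0316, limma). tni-3, a troponin I gene, unc-22, which encodes the giant kinase twitchin, and unc-87, a calponin-related gene, had log2 ratios of -1.99, -1.48 and -1.60. In the pharynx list 11 of 69 genes were lower (15.9%, median -0.8), among them 5 of 10 genes of the abu class, secreted proteins of the pharyngeal cuticle. abu-8 had 48.1 and 32.2 FPKM in SP117, against 145, 99.7 and 119 FPKM in TY1916 (log2 ratio -1.61, adjusted p = 0.0173, limma). In the intestine list 6 of 29 genes were lower (20.7%, median -0.6). ftn-1, an intestinal ferritin, had 7.43 and 2.57 FPKM in SP117, against 35.8, 30.0 and 22.8 FPKM in TY1916 (log2 ratio -2.7, adjusted p = 0.0197, limma), and cpr-4, a cathepsin B, had a log2 ratio of -1.78. The medians with the stage covariate were 0.03, -0.11 and 0.03 for muscle, pharynx and intestine, which also enter the score, and 0 of their genes were called then.

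Cuticle collagens of the col class were lower in 26 of 96 genes (27.1%, against 6.18% of all genes outside, median -1.24), and 0 were higher. col-103 had 4.31 and 2.66 FPKM in SP117, against 24, 22.1 and 23.7 FPKM in TY1916 (log2 ratio -2.74, adjusted p = 0.00643, limma). col-14 had 83.9 and 58 FPKM in SP117, against 338, 221 and 287 FPKM in TY1916 (log2 ratio -1.99, adjusted p = 0.00992, limma). These are collagens of the cuticle that the late embryo secretes before hatching and that larvae and adults renew. Of 14 furrow and body shape collagens, only dpy-9 was lower, with 1.63 and 1.22 FPKM in SP117, against 7.58, 4.97 and 4.64 FPKM in TY1916 (log2 ratio -1.91, adjusted p = 0.0342, limma). Epidermis and apical matrix genes gave 0 calls among 20, with a median of -0.06. The 2 collagen lists and the epidermal list hold genes of the same tissue, and whether they differ from each other was not tested. With the stage covariate the median of the col genes was -0.67.

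The class of genes with the largest shift was nspe, short nematode-specific peptides of unknown function on chromosome II. All 8 members were tested, and 6 were lower in SP117 (75%, against 6.18% of all genes outside). The median log2 ratio was -4.06, or 16.7-fold lower. nspe-7 (chrII:12627126-12627496) had 10.7 and 3.95 FPKM in SP117, against 409, 217 and 408 FPKM in TY1916 and 10.1, 1.52 and 1.13 FPKM in VC100 (log2 ratio -5.65, standard error 0.450, adjusted p = 0.00411, limma). nspe-2 had 21.3 and 11.3 FPKM in SP117, against 680, 352 and 333 FPKM in TY1916 (log2 ratio -4.78, adjusted p = 0.00411, limma). nspe-6 and nspe-8 were not called (log2 ratios -2.32 and -3.43, adjusted p = 0.109 and 0.0778, limma). The median of the class was -3.84 with the stage covariate, with 4 genes called, and -4.03 without the 2 libraries of extreme score, with 5 called. Single members moved more than the median with the covariate, to -4.74 for nspe-7 and -3.69 for nspe-2, and the ratio of nspe-7 was -6.35 to -4.94 with single libraries left out. Near-identical copies can share reads, so levels of single nspe genes are uncertain.

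The pals genes, named for a protein signature and known for the intracellular pathogen response of worms to microsporidia and viruses, were next to nspe and flp in the share of lower genes. Of 37 in the files 19 were tested, and 10 were lower in SP117 (52.6%, against 6.18% of all genes outside, median -1.77). The filter takes the mean over all 5 libraries, so members near 0 in SP117 passed it only through TY1916. The share and the median hold only for the 19 that passed. pals-14 on chromosome I had 0.347 and 0.350 FPKM in SP117, against 8.4, 8.45 and 15.1 FPKM in TY1916 and 0.466, 0.289 and 0.0717 FPKM in VC100 (log2 ratio -4.53, standard error 0.416, adjusted p = 0.00530, limma). Its neighbour pals-6 had 0.253 and 0.121 FPKM in SP117, against 5.91, 5.97 and 8.04 FPKM in TY1916 (log2 ratio -4.58, adjusted p = 0.00556, limma). pals-3, pals-4, pals-6 and pals-14 form a run of 4 called genes within 31.5 kb, with log2 ratios of -4.17 to -4.58. The paralogs that act as regulators of the response moved less. pals-22, its repressor, had 9.27 and 8.76 FPKM in SP117, against 16.6, 14 and 12.4 FPKM in TY1916 (log2 ratio -0.66, adjusted p = 0.155, limma), and pals-25, its activator, had 8.26 and 5.02 FPKM in SP117, against 8.5, 4.09 and 4.63 FPKM in TY1916 (log2 ratio 0.24, adjusted p = 0.715, limma).

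Other genes known from the same response were picked after their values were seen, so that their direction was fixed by the choice, and they are given as a description. skr-3, skr-4 and skr-5 encode Skp1-related adaptors and cul-6 the cullin of a ubiquitin ligase of that response. skr-5 had 0.589 and 0.363 FPKM in SP117, against 14.7, 9.43 and 9.52 FPKM in TY1916 (log2 ratio -4.29, adjusted p = 0.00530, limma). cul-6, which lies in an edge zone on chromosome IV, had 0.754 and 0.401 FPKM in SP117, against 6.52, 4.34 and 5.48 FPKM in TY1916 (log2 ratio -3.06, adjusted p = 0.0139, limma). skr-4 and skr-3 had log2 ratios of -3.39 and -2.27. The F-box gene fbxa-158, whose protein works with that ligase, had 0.792 and 0.228 FPKM in SP117, against 8.08, 5.62 and 10.1 FPKM in TY1916 (log2 ratio -3.85, adjusted p = 0.0133, limma), within a run of 6 called neighbours over 26.2 kb of chromosome II. eol-1, a homologue of a decapping exonuclease, had 0.781 and 0.405 FPKM in SP117, against 5.07, 5.66 and 8.35 FPKM in TY1916 (log2 ratio -3.24, adjusted p = 0.0128, limma). irg-2, an infection response gene, and F26F2.1, F26F2.2, F26F2.3 and F26F2.4 on chromosome V had log2 ratios of -2.29 to -4.33, all called. That of irg-2 was -5.85 without SP117 replicate 1 and -2.80 without SP117 replicate 2, and its call was lost without any 1 of the TY1916 libraries. In VC100 embryos these genes stood near their SP117 levels, for example at 0.514, 0.111 and 0.415 FPKM for eol-1 and at 0.847, 0.234 and 0 FPKM for skr-5. The median of the pals class was -1.40 with the stage covariate and -1.54 without the 2 libraries of extreme score, with 1 and 0 genes called by limma.

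**Figure D3:**
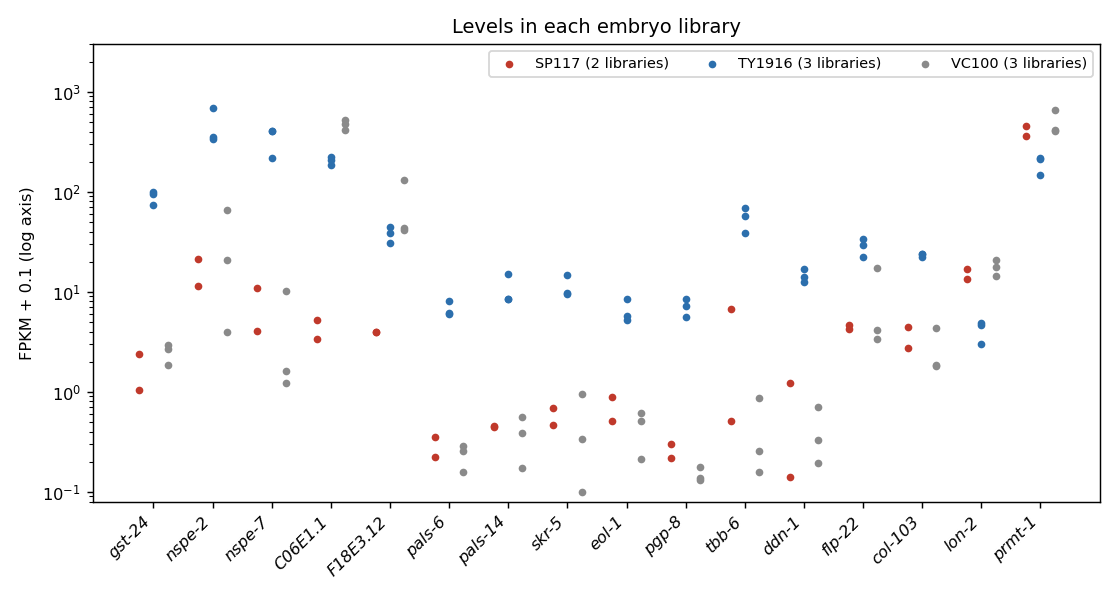
FPKM + 0.1 on a log axis (y) in each SP117 (red), TY1916 (blue) and VC100 (gray) embryo library for 16 genes named in the text (x). TY1916 stands apart from both other strains for gst-24, nspe-2, nspe-7, pals-6, pals-14 and skr-5, while SP117 stands apart for C06E1.1 and F18E3.12, and lon-2 is low in TY1916 alone.

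Among all innate immune effectors 27 of 130 were lower in SP117 (20.8%, against 6.18% of all genes outside, median -1.07), and 10 of these were the pals genes. fipr-21 and fipr-4, genes of small antimicrobial-type peptides, had log2 ratios of -1.86 and -2.65. The bZIP transcription factor zip-2, which acts in the response to blocked translation, had 236 and 234 FPKM in SP117, against 563, 518 and 552 FPKM in TY1916 (log2 ratio -1.21, adjusted p = 0.0135, limma). zip-10, of the same family, had 4.84 and 3.12 FPKM in SP117, against 24.7, 22 and 32.6 FPKM in TY1916 (log2 ratio -2.72, adjusted p = 0.00848, limma). The galectin class lec was lower in 5 of 10 genes (50%) and the transthyretin-related class ttr in 18 of 42 (42.9%). Of 287 F-box and MATH-BTB genes 29 were lower (10.1%) although their median was 0.26, and with the stage covariate the median was -0.40. Over 162 classes with at least 8 genes tested, 20 had at least 4 genes lower and 0 had at least 4 higher.

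Stress genes followed in part. gst-24 (chrII:13610371-13611272), a glutathione S-transferase, had 2.3 and 0.945 FPKM in SP117, against 99.3, 73.5 and 94.7 FPKM in TY1916 and 2.86, 2.55 and 1.76 FPKM in VC100 (log2 ratio -5.81, standard error 0.371, adjusted p = 0.00251, limma). It stayed called with the stage covariate (log2 ratio -5.08) and without the 2 libraries of extreme score (-5.12). Of 103 detoxification genes 10 were lower in all (9.71%, against 6.18% of all genes outside, median -0.49, or 0.24 after quantile normalization), among them the cytochrome P450 genes cyp-33C8 and cyp-14A5 with log2 ratios of -3.64 and -3.09. pgp-8, an ABC transporter gene, had 0.200 and 0.118 FPKM in SP117, against 7.18, 5.47 and 8.31 FPKM in TY1916 (log2 ratio -4.77, adjusted p = 0.00530, limma). tbb-6, a beta-tubulin gene induced by mitochondrial stress, had 6.62 and 0.409 FPKM in SP117, against 69.1, 38.4 and 57.1 FPKM in TY1916 (log2 ratio -4.85, adjusted p = 0.0296, limma). Its ratio was -6.71 without SP117 replicate 1 and -2.99 without SP117 replicate 2, and the call was lost without any 1 of the TY1916 libraries and with the stage covariate. Of 59 chaperone and heat shock genes (median -0.13) only hsp-17 was called. Of the 22 genes among them of the hsp class, 19 had a negative ratio (median -1.33). In 7 of the 22 the unadjusted p was under 0.05 in limma, as in 3188 of all 12142 genes outside. The scores of the class were -0.52 and -0.59 in SP117, against -0.06, -0.16 and 1.37 in TY1916, so TY1916 replicate 3 stood far above the others. hsp-17 had 6.43 and 6.82 FPKM in SP117, against 71.2, 39.8 and 101 FPKM in TY1916 (log2 ratio -3.29, adjusted p = 0.00848, limma). hsp-16.48, an inducible small heat shock gene, had 38.3 and 234 FPKM in SP117, against 345, 304 and 4250 FPKM in TY1916, and was not called (log2 ratio -3.01, adjusted p = 0.163, limma), with TY1916 replicate 3 far above the others.

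For a few genes SP117 was the strain that stood apart. The rule took genes at which every SP117 library lay at least 4-fold below every TY1916 and every VC100 library, and 5 genes met it. C06E1.1 on chromosome III (chrIII:8605752-8606424) had 5.16 and 3.26 FPKM in SP117, against 186, 223 and 207 FPKM in TY1916 and 521, 472 and 417 FPKM in VC100. Its log2 ratio was -5.61 (standard error 0.241, adjusted p = 0.000472, limma), and it was called with the stage covariate (-5.4) and without the 2 libraries of extreme score (-5.35). F18E3.12 on chromosome V had 3.87 and 3.88 FPKM in SP117, against 30.7, 43.9 and 38.7 FPKM in TY1916 and 130, 43 and 41.4 FPKM in VC100 (log2 ratio -3.24, adjusted p = 0.00411, limma). catp-3, a P-type cation transporter gene, had 0.403 and 0.361 FPKM in SP117, against 9.38, 4.38 and 9.34 FPKM in TY1916 (log2 ratio -3.94, adjusted p = 0.00967, limma). T24D8.6 was listed at 0 in both SP117 libraries and had 3.7, 5.4 and 4.79 FPKM in TY1916. The fifth gene, ZK896.5, lies in the block of chromosome IV that is extra in TY1916. These genes were picked by their values and are given as a description.

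Several of the lowest ratios belonged to genes listed at 0 in SP117, for which no fold is given. F09C6.13 had 11.3, 13.7 and 8.51 FPKM in TY1916, B0205.14 had 13.7, 7.77 and 19.7 FPKM, and F36D4.7 had 5.47, 7.98 and 7.08 FPKM, while both SP117 libraries were listed at 0. F46F11.11 was listed at 0 in both SP117 libraries too and had 30.2, 6.3 and 22.4 FPKM in TY1916, but in VC100 it was listed at 0 once and had 27.2 and 13.5 FPKM in the others. Y38H6C.24 and ZC334.13 were listed at 0 in all SP117 and VC100 libraries and had 1.76 to 8.87 FPKM in TY1916. clc-32, a claudin-like gene, had 0.184 FPKM and 0 in SP117, against 12.8, 9.06 and 11.3 FPKM in TY1916. The fragments behind these values are unknown, and the log2 ratios depend on the constant added before the log.

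The lower genes were spread unevenly over the chromosomes. On chromosome V 280 of 2470 genes tested outside the regions were lower (11.3%), against 4.22% to 4.94% on chromosomes I to IV (377 of 8242 together) and 6.50% on X. The median log2 ratio was -0.43 on V and -0.48 on X, against 0.0099 over I to IV. Chromosome V of C. elegans is known for large families of F-box, detoxification and nuclear receptor genes, mainly on its arms. Whether such families account for the share on V was not tested. With V cut by length into 4 equal parts, the share was 14% and 15.3% in the outer parts and 9.85% and 8.79% in the inner ones. Higher outer parts were not particular to V. They had 7.03% and 5.16% on II (inner 3.68% and 3.28%) and 6.98% and 6.40% on III (inner 2.84% and 3.19%). On I the outer parts had 3.84% and 7.96% (inner 3.24% and 3.09%), while the parts of X with tested genes had 6.42% to 6.56%. Some of the lower genes lay side by side: 34 runs of 3 or more neighbouring genes tested held 114 of the 750. On V, where the share of lower genes was highest, there were 20 of the runs, with 63 genes. How many runs the same number of genes would form at random places was not tested. Neighbouring genes of a family share sequence and regulation and are not independent.

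**Figure D4:**
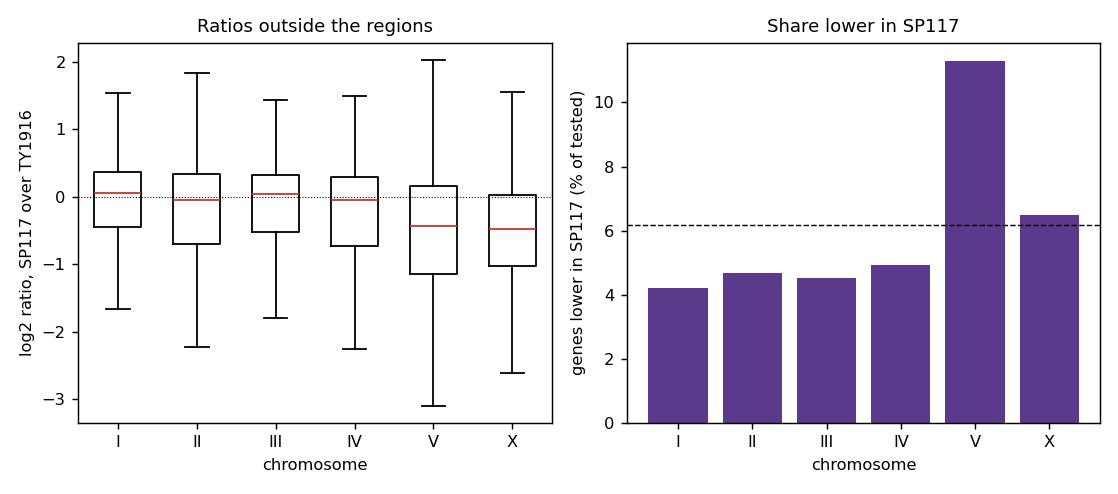
Left, log2 ratios of SP117 over TY1916 (y axis) for genes outside the duplicated regions by chromosome (x axis), with the median in red, the box at the quartiles and whiskers to the last value within 1.5 box lengths. Right, the percentage of tested genes lower in SP117, with the dashed line at 6.18% for all chromosomes, where V stands at 11.3%.

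Genes of X outside mnDp10 had a median of -0.48, which was 0.42 below the autosomal genes outside the regions (-0.06). The library scores of X against the autosomes were -0.0094 and -0.55 in SP117, against 0.36, 0.07 and -0.004 in TY1916, and the exact permutation test gave p = 0.1, the smallest it can give. SP117 replicate 1 and TY1916 replicate 3 were close to each other. This difference was not stable. It was 0.04 with the stage covariate, whose score does not overlap between the strains. It was -0.06 without SP117 replicate 2 and TY1916 replicate 1 together. Leaving out single libraries gave -0.71 to -0.16. Strain and embryo stage cannot be told apart for this difference in these 5 libraries.

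The genes inside the duplicated regions are given apart from those above. The X genes of mnDp10 were split into a part that both strains carry in extra copy and a part that SP117 alone carries so, with edges read from the DNA-seq plots of the study. On the part of SP117 alone (first gene start 12199496, last gene end 17718641, in pieces on both sides of yDp11), 44 of 484 genes were higher (9.09%, against 0.438% of all genes) and 7 lower. The median log2 ratio was 0.27, which was 0.75 above the other X genes, or 1.68-fold. The library scores were 0.49 and 0.43 in SP117, against -0.35, -0.27 and -0.22 in TY1916 (exact permutation p = 0.1, the smallest possible). Relative to the other X genes, 409 of the 484 genes (84.5%) were above the baseline median. ZK662.5 had 5.09 and 4.68 FPKM in SP117, against 1.07, 1.3 and 1.78 FPKM in TY1916 (log2 ratio 1.78, adjusted p = 0.0459, limma), and the neuropeptide gene flp-32 went the other way, with 1.79 and 0.937 FPKM in SP117, against 9.68, 6.28 and 6.41 FPKM in TY1916 (log2 ratio -2.4, adjusted p = 0.0219, limma).

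On the X genes that both strains carry in extra copy (chrX:12348497-13139701), SP117 embryos were lower. The median log2 ratio of 84 genes was -1.33, 0.85 below the other X genes, or 1.81-fold lower, and 24 genes were lower (28.6%, against 6.32% of all genes) and 0 higher. The library scores were -0.31 and -0.71 in SP117, against 0.33, 0.28 and 0.37 in TY1916 (exact permutation p = 0.1, the smallest possible). Both SP117 libraries lay below all TY1916 libraries in 70 of the 84 genes, against 30.0% of all genes tested. vwa-8, a gene of a mitochondrial ATPase, had 58.7 and 41.9 FPKM in SP117, against 91.5, 107 and 115 FPKM in TY1916 (log2 ratio -1.07, adjusted p = 0.0329, limma). lep-5 had 0.640 and 0.315 FPKM in SP117, against 6.4, 6.01 and 10.7 FPKM in TY1916 (log2 ratio -3.77, adjusted p = 0.00971, limma). With the stage covariate the difference was -0.65, and single libraries left out gave -1.06 to -0.63.

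Genes with autosomal extra copies in TY1916 were lower in SP117 too. The copy number of the chromosome IV block is not settled, because the paper proposes that it may be free or heterozygous. Over 168 genes of the chromosome IV block (chrIV:12640424-14012049) the median was -0.66, which was 0.61 below the other IV genes, or 1.53-fold lower in SP117. In the block 26 genes were lower (15.5%, against 4.94% of the IV genes outside) and 0 higher. The library scores were -0.3 and -0.46 in SP117, against 0.28, 0.26 and 0.20 in TY1916 (exact permutation p = 0.1). rab-19, a Rab GTPase gene, had 77 and 71.7 FPKM in SP117, against 159, 129 and 127 FPKM in TY1916 (log2 ratio -0.89, adjusted p = 0.0360, limma). The left end of V was less even. Its 45 genes had a median of -0.75 (0.32 below the other V genes) and 12 were lower (26.7%, against 11.3% of the V genes outside), but the scores overlapped, with -0.48 and 0.09 in SP117, against 0.03, 0.34 and 0.13 in TY1916 (exact permutation p = 0.2), and single libraries left out gave -0.67 to -0.17. npr-5, a neuropeptide receptor gene there, had 7.61 and 5.12 FPKM in SP117, against 19.1, 18.2 and 17.4 FPKM in TY1916 (log2 ratio -1.53, adjusted p = 0.0231, limma). The 20 genes at the right end of I, shown as deleted in SP117 in the study's copy number plot, differed by 0.02 from the other I genes (exact permutation p = 0.3), with 1 gene lower.

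**Figure D5:**
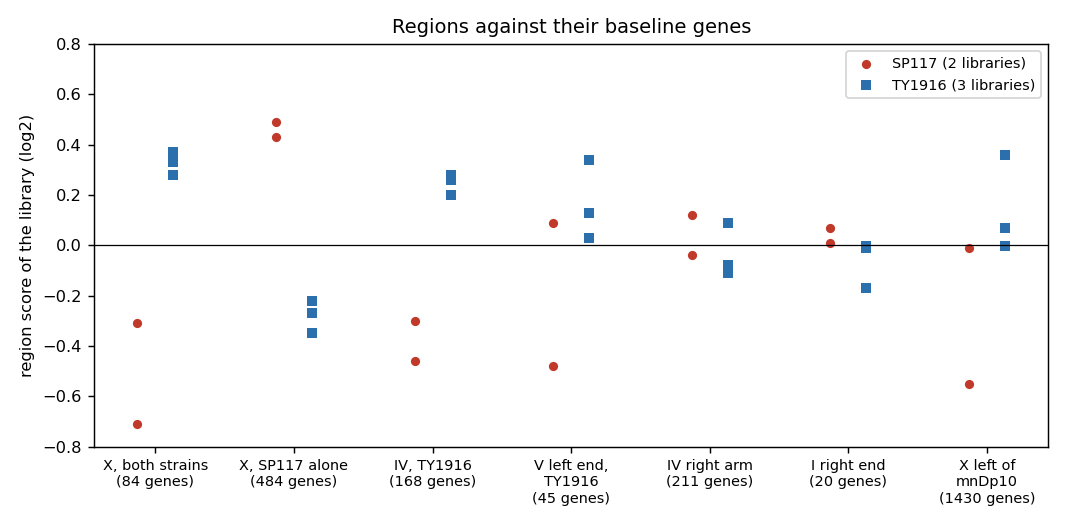
Region score of each library (y axis, median of the region's genes minus that of its baseline genes on the log2 scale, after each gene's mean over the 5 libraries was subtracted) for 7 regions (x axis), with SP117 as red circles left of TY1916 as blue squares. The strains lie apart in opposite directions on the parts of X and on the IV block, and overlap on the left end of V and on the right arm of IV.

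The right arm of chromosome IV, whose copy number was not settled, differed by 0.05 from the other IV genes as a whole (exact permutation p = 0.5). Of its 211 genes tested, 6 were higher in SP117 (2.84%, against 0.438% of all genes) and 5 lower (2.37%, below the 6.32% of all genes). Among the lower ones, C49C3.11 had 0.566 and 0.653 FPKM in SP117, against 2.47, 2.74 and 2.91 FPKM in TY1916 (log2 ratio -1.98, adjusted p = 0.0370, limma), and Y51H4A.8 had a log2 ratio of -2.34. Some of the higher ones were low in TY1916 alone. The rule took genes with every TY1916 library at least 3-fold below every SP117 and every VC100 library, and 5 of the 6 genes that met it lay there. C49C3.7 (chrIV:17332536-17333608) had 44.4 and 52.3 FPKM in SP117, against 5.18, 5.05 and 7.68 FPKM in TY1916 and 76.4, 49.9 and 49.2 FPKM in VC100 (log2 ratio 3.02, adjusted p = 0.00530, limma). C49C3.6, which overlaps its end, had 46.9 and 49.5 FPKM in SP117, against 9.19, 10.3 and 12.9 FPKM in TY1916 (log2 ratio 2.16, adjusted p = 0.00738, limma). rif-1.1, further right on the arm, had 130 and 168 FPKM in SP117, against 18.4, 26.3 and 31.2 FPKM in TY1916 (log2 ratio 2.58, adjusted p = 0.00614, limma). At the other end of the arm, F02H6.3 had 15.1 and 24.3 FPKM in SP117, against 0.836, 1.55 and 3.52 FPKM in TY1916 (log2 ratio 3.44, adjusted p = 0.0207, limma), and its neighbour K01G12.3 had 3.26 and 3.92 FPKM in SP117, against 0.185, 0 and 0.958 FPKM in TY1916, but did not pass the test (log2 ratio 3.56, adjusted p = 0.0686, limma). The sixth was mdt-1.2 on X in the part that is extra in SP117 alone, a Mediator subunit paralog, with 24.7 and 26.8 FPKM in SP117, against 4.0, 3.33 and 3.67 FPKM in TY1916 and 17.1, 25.8 and 24.5 FPKM in VC100 (log2 ratio 2.78, adjusted p = 0.00556, limma). These genes were picked by their values too.

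Housekeeping genes and markers of other animals gave few calls. Of 69 cytoplasmic ribosomal protein genes and 31 oxidative phosphorylation genes none was called by limma, with 2 and 1 at an unadjusted p under 0.05 and medians of -0.19 and 0.13. Among 67 histone genes his-35, an H2A gene, was lower, with 257 and 167 FPKM in SP117, against 500, 475 and 373 FPKM in TY1916 (log2 ratio -1.1, adjusted p = 0.0436, limma). The defining yolk genes of adult intestine were low in all 5 libraries. vit-2 had 0.102 and 5.41 FPKM in SP117, against 0.249, 13.1 and 7.49 FPKM in TY1916, and vit-6 had 0.194 and 5.28 FPKM in SP117, against 0.438, 15.2 and 7.52 FPKM in TY1916, so SP117 replicate 1 and TY1916 replicate 1 were low within their strains. The list scores of the 6 vitellogenins were -2.65 and 1.06 in SP117, against -1.86, 1.77 and 1.54 in TY1916. Of 61 sperm genes 11 passed the filter, with list scores of -0.91 and 1.08 in SP117, against -1.56, -0.41 and 1.69 in TY1916, and 0 were called. These genes thus differed between replicates of each strain, and their part in the results was not tested. Of 7 adult and larval markers tested, far-3, a fatty acid and retinol binding protein gene, was lower, with 19.7 and 12.7 FPKM in SP117, against 103, 104 and 82.9 FPKM in TY1916 (log2 ratio -2.6, adjusted p = 0.00556, limma).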

How the data were processed

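The authors aligned stranded mRNA-seq reads to WS220 (ce10) with HISAT2 2.2.1 and deposited FPKM values from Cufflinks 2.2.1, and TPM values whose making is not described, for 20390 genes per library. Read counts were not used here, so no count test was run. Genes listed at 2 places (2), with a failed estimate (28) or mitochondrial (12) were left out. Names came from RefSeq (WBcel235, names only, 97.5% matched), and coordinates are those of WS220, counted from 1. Strain, stage and replicate came from the labels, which do not say whether libraries are separate cultures, so p-values measure the spread between libraries, which may be technical.

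Ratios are SP117 minus TY1916 in log2(FPKM + 0.1), tested with limma 3.58.1 (R 4.3.3, eBayes with a trend, two-sided, Benjamini-Hochberg over all 13244 genes, threshold 0.05), 2 against 3 libraries, without covariates. Duplicated regions were read from coverage plots, with edge zones of 0.05 Mb left out. Region scores were compared by the exact permutation test over 10 splits, two-sided. Gene lists and classes (by symbol prefix, at least 8 tested genes) are described by counts and medians. Members, lists and regions were chosen with earlier results of these data known. Named genes are the strain markers, the 15 lowest and up to 15 highest called genes outside the regions with at least 5 FPKM in the higher strain, up to 4 genes of lowest adjusted p per list, 2 per direction and region and the 8 classes with the highest share lower, and genes said to be chosen after their values were seen. Some are given by count or range only.

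Alternatives were pseudocounts of 1 and 0.01, filters (none, mean of 5 FPKM, 1 FPKM in every TY1916 library), the deposited TPM, median-centred and quantile-normalized libraries, the VC100 or all 23 libraries in the fit, robust eBayes, the replicate block, other edge zones (0 or 0.15 Mb), means for medians, and each library left out. The steps were tested on simulated data, with noise drawn independently for each gene and library. A log2 change of 0.58 was recovered in 0.5% of 200 changed genes, one of 1 in 43% and one of 2 in 95.5%. Differences that libraries share across genes were not simulated. A list without a call can therefore still hold small changes. Near-identical genes can share reads.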

Additional observations from a re-analysis of the deposited data

How the results depend on the processing

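More of the called genes were lower than higher in SP117 under every setting run, but the balance and the number of calls were not stable. The number, 895 in all, was 464 (378 outside the regions) with a filter of 5 FPKM, 452 (367) after quantile normalization, 382 (318) with the VC100 embryos in the fit, and 1151 outside the regions with all 23 libraries in the fit. It was 20 (16) with the early-stage score as a covariate and 38 (36) without SP117 replicate 2 and TY1916 replicate 1 together, both settings added after the data were seen. Leaving out 1 library at a time gave 61 to 2339 calls, and 51 to 2095 outside the regions. With the replicate number as a block, over replicates 1 and 2 of each strain, 5650 genes were called (5112 outside), of which 2319 (2073) were higher and 3331 (3039) lower, against 61 (51) for the same 4 libraries without the block, 6 (0) of them higher. The labels do not say that a number marks a shared batch, so the numbers were not taken as pairs. The differences between replicates 1 and 2 of the 2 strains correlated at r = 0.45 across genes, which is no reason to reject pairs. With only 2 pairs, whether the numbers mark pairs was not tested. The number of calls and the balance of higher and lower genes depend on this choice.

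Region differences kept their sign under the settings run, apart from X outside mnDp10 (0.04 with the stage covariate) and the right end of I (-0.05 with no edge zone). Leaving out 1 library gave 0.69 to 0.81 for X extra in SP117 alone, -0.68 to -0.54 for the IV block, 0.06 to 0.15 for the IV right arm and 0.03 to 0.12 for the right end of I. The left end of V, at -0.32, changed in size. It was -0.62 with no edge zone, -0.69 with an edge zone of 0.15 Mb, -0.67 after quantile normalization and -0.59 with means for medians. It was -0.31 with TPM and -0.17 without SP117 replicate 1. Of the 82 genes named as called, none changed sign. A gene at which the strains do not overlap cannot change sign when libraries are left out. Among the others unc-3 had log2 ratios of 0.54 with the stage covariate and 0.36 without the 2 libraries, and with 1 library left out it ranged between -0.61 and 0.20, vit-2 between -4.02 and 0.75, vit-6 between -3.75 and 0.44 and pals-25 between -0.11 and 0.59. With 5 libraries and unknown read counts, ratios of genes under a few FPKM are the least certain, and the log2(FPKM + 0.1) scale understates their change.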

Other observations

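Further gene groups outside the duplicated regions gave fewer calls. Of 62 hedgehog-related and patched-related genes, which shape the apical matrix and cuticle, 5 were lower in SP117 and 0 higher (8.06% lower, near the 6.18% of all genes outside, median log2 ratio -0.7, or 0.03 with the early-stage score as a covariate). grl-4 of this group had 96.9 and 87 FPKM in SP117 embryos, against 215, 245 and 303 FPKM in TY1916 embryos (log2 ratio -1.45, adjusted p = 0.0134, limma). Of 22 insulin-like peptide genes 3 were lower (13.6%, against 6.18% of all genes outside, median -1.08). After quantile normalization their median was -0.12 and 0 were called lower. In 5 of the 22 the unadjusted p was under 0.05 in limma, against 3188 of all 12142 genes outside. Of this group, ins-17 had 5.21 and 4.67 FPKM in SP117, against 13.9, 14.9 and 12.2 FPKM in TY1916 (log2 ratio -1.44, adjusted p = 0.0255, limma). Of 23 secreted protease genes 4 were lower (17.4%, against the same 6.18%, median -0.98). After quantile normalization the median of these protease genes was -0.16 and 2 were called lower. The astacin nas-30 of this group had 4.48 and 3.34 FPKM in SP117, against 15.1, 11.7 and 15.3 FPKM in TY1916 (log2 ratio -1.82, adjusted p = 0.0193, limma). Of 155 nuclear hormone receptor genes 9 were lower (5.81%, also near that share), with a median of -0.49 that was 0.10 after quantile normalization. nhr-227 had 0.0450 and 0.0559 FPKM in SP117, against 1.8, 2.65 and 3.85 FPKM in TY1916 (log2 ratio -4.19, adjusted p = 0.0107, limma).

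No gene was called by limma among 68 homeobox genes, 20 innexins, 14 oocyte and eggshell genes, 11 fatty acid desaturase and elongase genes and 10 heterochronic and molting regulators, of which 9, 4, 1, 2 and 1 had an unadjusted p under 0.05. Their median log2 ratios were -0.14, -0.3, 0.19, -0.11 and -0.22. Those of the homeobox and the desaturase and elongase genes were 0.06 after quantile normalization.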
